A study of Homo sapiens with 4 samples.

Results

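The extended major histocompatibility complex (MHC) on the short arm of chromosome 6 was examined for ATF3 binding in SW480 cells. Its members were chosen by position: ATF3 peaks of the deposited lists were merged wherever they shared 1 bp or more, and merged regions overlapping 28477797 to 33448354 on chromosome 6 (build hg19, 4.97 Mb) were taken. Only 3 of the 44826 merged regions on chromosomes 1 to 22 and X met this rule. They are numbered 1 to 3 by position.

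SW480 is an established line from a colorectal adenocarcinoma, grown with fetal bovine serum. ATF3, a bZIP transcription factor that cells make under stress, is the protein studied. The assay was CUT&Tag, in which an antibody directs a transposase to the DNA around the bound protein. Cells grew for 24 h either without restriction, in full medium (libraries FM1 and FM2), or with cystine restricted (libraries CR1 and CR2), and all 4 libraries were made with an antibody against ATF3. Cystine is the oxidised form in which cells take up the amino acid cysteine, and the labels name no other difference between the groups. Nothing in the labels says whether the 2 libraries of a medium came from separate cultures, so the spread between them may be technical. The p-value given here compares these 4 libraries only, and its lowest possible value is set by how few they are. A library without the antibody was not used here, and a peak list does not measure expression, so the labelled cell type could not be checked against marker genes.

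The MHC is among the most gene-dense and most variable parts of the human genome. Its class I span encodes HLA-B and HLA-C among other class I molecules, which show peptides from inside the cell to cytotoxic T cells. The class II span encodes the HLA-DR, HLA-DQ and HLA-DP proteins, which show peptides from outside to helper T cells, together with the peptide transporter genes TAP1 and TAP2. Between them the class III span holds genes of other kinds, such as the cytokine gene TNF, complement genes and heat shock genes. Class II promoters carry an X2 box, a sequence of the kind that ATF and CREB factors bind. The border between class I and class III was set at 31.5 Mb and that between class III and class II at 32.2 Mb, which gave spans of 3.02, 0.7 and 1.25 Mb.

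ATF3 peaks were nearly missing from the MHC in every library, and the few that were listed lay in the class II span and came from cystine-restricted cells. The class I span had 0 peaks in each of the 4 libraries, and so had the class III span. The class II span had 4 peaks in CR1, 4 in CR2, and 0 in both FM1 and FM2. The whole lists were longer under restriction too, with 33838 and 29607 peaks in CR1 and CR2 against 17447 and 19132 in FM1 and FM2 on chromosomes 1 to 22 and X. In the MHC the groups did not overlap, with means of 4 ± 0 and 0 ± 0 peaks (SD, n = 2 each), but 2 libraries against 2 allow no small p, and a two-sided exact permutation test gave p = 0.33, its lowest possible value here.

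**Figure D1:**
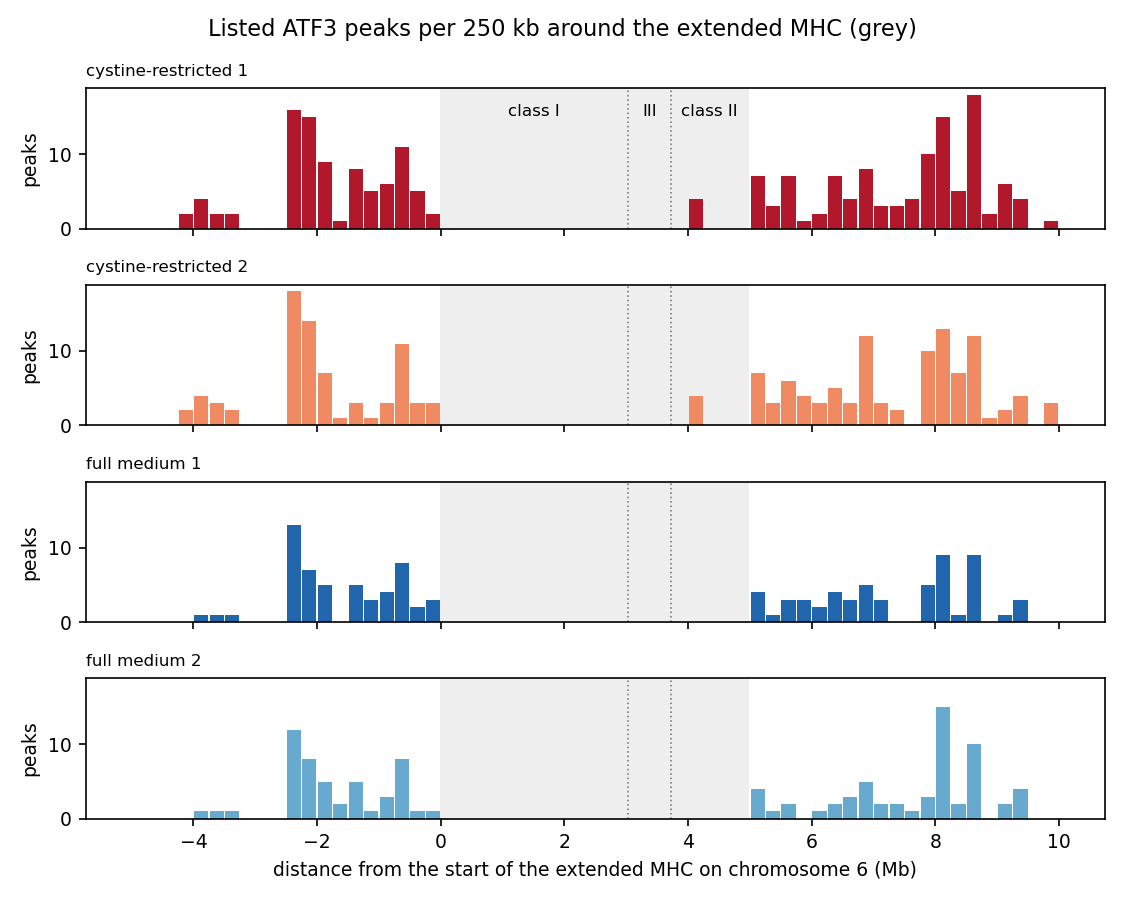
Number of listed ATF3 peaks (y axis) per 250 kb bin along chromosome 6 (x axis, Mb from the start of the extended MHC, which is shaded, with dotted lines at the class borders), 1 panel for each library (CR1, CR2, FM1 and FM2 from the top). Peaks run up close to both edges of the shaded span in every library, and inside it 1 bin holds 4 peaks in each cystine-restricted library and none in full medium.

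The MHC was sparse against its own surroundings. In the stretch of the same length just below it on chromosome 6, CR1 and CR2 had 88 and 75 peaks, and FM1 and FM2 had 53 and 49. In the stretch just above it CR1 and CR2 had 110 and 100 peaks, and FM1 and FM2 had 56 and 59. Merged regions numbered 104 below, 3 within and 147 above the MHC. Both flanks thus had peaks in both media, with more under cystine restriction, whereas in the MHC full medium had none.

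Per Mb, the MHC had 0.604 regions, with 2.40 in its class II span and 0 in its class I and class III spans. The rest of chromosome 6 had 10.1 and all 23 chromosomes compared had 15.2, so the rest of chromosome 6 was 16.8 times as dense as the MHC taken whole. This ratio rests on 3 regions, and it was 9.97 without CR1 and 10.97 without CR2, where the MHC peaks came apart into 4 regions. It was 10.3 when a −log10 q of 5 or more was required, and 9.58 with a reciprocal overlap of 50% for joining peaks, which left 7. At the density of the rest of chromosome 6, a span of this length would hold 39.3 and 33.7 peaks in CR1 and CR2, and 17.9 and 19.7 in FM1 and FM2. The 4 peaks listed in CR1 were 0.304% of its 1315 peaks on chromosome 6 (95% Wilson interval 0.118 to 0.780), and those in CR2 were 0.355% of 1128 (0.138 to 0.908). The MHC makes up 2.91% of the length of chromosome 6 between its first and last region. These intervals cover counting error only, and neighbouring peaks are not independent.

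Peaks stopped and resumed close to the ends of the span. The last region below the MHC ended at 28351677, 126120 bp before the span, and the first region above it started at 33538622, 90268 bp beyond it. From 28351677 to the first MHC region at 32590427, no library had a peak over 4.24 Mb, which takes in the whole class I and class III spans. Among the 1683 gaps between neighbouring regions on chromosome 6, this was the second longest after one of 6.16 Mb, and the median gap was 25984 bp. Among the 44803 gaps on all 23 chromosomes it ranked 21, centromeres and unsequenced stretches included. A further peak-free stretch of 0.902 Mb followed region 3.

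Build hg19 also holds alternate copies of the MHC from other haplotypes, as contigs of their own beside chromosome 6. A read that fits several copies equally well has no single place, and how such reads were treated is not given in the sources used here. The lists held 2 peaks on these contigs in CR1, 4 in CR2, 0 in FM1 and 1 in FM2. Peaks were thus few on the alternate copies as well as on chromosome 6. The part that the alternate copies play in the sparse MHC was not tested, and fewer reads placed in the span and less ATF3 bound there cannot be told apart from peak lists.

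Other stretches of the genome had as few regions. The 23 chromosomes were parted into 599 windows of the length of the MHC, and 37 of them (6.18%) had 3 regions or fewer, of which 26 had none. The median window had 56 regions, with quartiles of 24 and 107. Of the 26 empty windows, 14 came before the first region on chromosomes 13, 14, 15, 21 and 22, whose short arms are largely repeats, and 7 lay on chromosomes 1, 9 and 16, which have large heterochromatin blocks beside the centromere. Reads are hard to place in such sequence. Apart from these windows, a distinction made after the counts were seen, 16 had 3 regions or fewer, of which 5 had none. Only empty windows were set aside, so neighbouring windows with 1 region on chromosomes 14 and 16 stay among the 16. Windows were laid from the start of each chromosome, and the MHC itself fell across windows that held 94 and 39 regions. The 6.18% is therefore not a share of stretches bounded as the MHC is. Windows were not sorted by gene content, since no annotation of build hg19 was used.

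**Figure D2:**
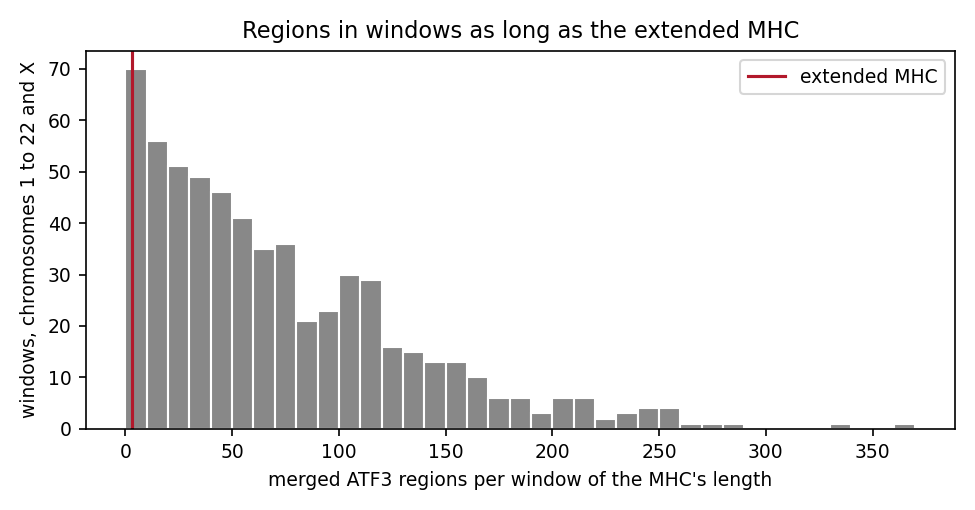
Number of windows (y axis) by the number of merged ATF3 regions they hold (x axis), for 599 windows of 4.97 Mb on chromosomes 1 to 22 and X. The line marks the 3 regions of the extended MHC, which is not itself among the windows, and falls at the lowest bar. The median window holds 56.

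Few regions stood against many genes in the MHC. In RefSeq's table for GRCh38.p14, used here for gene names and their order only, 49 protein-coding genes run from HLA-F to MICB in class I, 58 from DDX39B to NOTCH4 in class III and 34 from HLA-DRA to KIFC1 in class II. These 141 genes leave out the outer parts of the extended MHC. Set against them, the 3 regions come to 2.13 per 100 protein-coding genes, and the 1681 regions on the rest of chromosome 6 come to 185 per 100 of its other 908 protein-coding genes. The 908 include genes of the outer parts, while the 1681 regions are counted outside the whole extended MHC, so both spans differ a little and 185 is on the low side.

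The class I and class III genes include some whose promoters hold a sequence of the kind ATF3 is known to bind. The windows searched run from 250 bases before to 50 after each RefSeq start site, and the letters sought were TGACGTCA, the cAMP response element, and TGAGTCA or TGACTCA, the AP-1 site, which cover both strands and cannot overlap each other in the same letters. In class I, 2 of 43 windows held TGACGTCA (4.65%), those of POLR1H, which encodes a subunit of RNA polymerase I, and MUCL3, a mucin-like gene. In class III the count was 0 of 52 and in class II 0 of 31. Over all protein-coding genes it was 394 of 15843 windows (2.49%). Only exact letters were sought, so an X2 box spelled otherwise is not counted. The 0 of 31 is therefore no sign that class II promoters lack one. The AP-1 letters were in 2 of 43 windows in class I (DDR1 and PSORS1C1), in 3 of 52 in class III (CLIC1, VWA7 and NOTCH4) and in 2 of 31 in class II (HLA-DPB1 and SMIM40), against 627 of 15843 (3.96%) in all. With counts this small the 95% Wilson intervals of the classes reach from 1.28% to 20.7% where a match was found, and all of these contain the shares over all genes.

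3 of these windows from class I are shown because no library had a listed peak anywhere in that span, and so none at these genes. They come from RefSeq, build GRCh38.p14, plus strand, 300 bases each, written 5′ to 3′ with the matched letters in capitals. The match starts 75 bases before the start site in POLR1H, 47 before it in MUCL3 and 50 before it in DDR1, a gene for a collagen-binding receptor tyrosine kinase.
POLR1H: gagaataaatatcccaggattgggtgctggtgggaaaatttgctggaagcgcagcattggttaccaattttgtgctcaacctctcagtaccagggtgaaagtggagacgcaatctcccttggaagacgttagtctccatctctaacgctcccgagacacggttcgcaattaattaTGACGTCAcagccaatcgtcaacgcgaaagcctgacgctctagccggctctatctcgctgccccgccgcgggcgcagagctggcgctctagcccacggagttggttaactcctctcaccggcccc
MUCL3: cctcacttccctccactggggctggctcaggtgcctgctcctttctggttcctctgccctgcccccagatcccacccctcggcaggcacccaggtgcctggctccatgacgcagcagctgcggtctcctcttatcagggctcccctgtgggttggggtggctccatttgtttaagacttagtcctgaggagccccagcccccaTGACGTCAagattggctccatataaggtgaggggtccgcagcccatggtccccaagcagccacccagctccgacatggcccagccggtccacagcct
DDR1: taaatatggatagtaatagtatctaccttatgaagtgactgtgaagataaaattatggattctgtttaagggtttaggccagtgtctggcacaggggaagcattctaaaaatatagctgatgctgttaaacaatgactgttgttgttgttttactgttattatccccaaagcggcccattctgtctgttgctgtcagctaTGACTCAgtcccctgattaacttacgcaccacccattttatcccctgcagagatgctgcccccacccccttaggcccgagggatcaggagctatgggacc
A match in these letters is a description and not a binding site, and a peak that is not listed did not meet the caller's criteria, which is no measurement of absent binding.

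Of 32 class I names on a gene list, 28 lie from HLA-F to MICB, among them HLA-B, HLA-C, MICA, TUBB, FLOT1, IER3 and POU5F1. Its 31 class III names matched 30 genes, and all 30 lie from DDX39B to NOTCH4, among them TNF, LTA, HSPA1A, HSPA1B, CFB, ATF6B and AGER. No library listed a peak at any of these 58 genes, since neither span holds one. Of its 25 class II names, 24 lie from HLA-DRA to KIFC1, and which of them lie near regions 1 to 3 was not analysed here, for want of gene positions in build hg19.

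The 3 regions of the class II span lay within 45862 bp of each other, which is 0.923% of the MHC. All were listed in CR1 and CR2 and absent from FM1 and FM2, a pattern called gained. Of all 44826 merged regions 12.7% were gained, and of the 20633 listed in both CR1 and CR2 27.6% were. In the MHC it was 3 of 3 (95% Wilson interval 43.9% to 100%), against 13 of 55 regions listed in both CR1 and CR2 in the flank below (23.6%) and 15 of 61 in the flank above (24.6%). The gained number fell from 3 to 1 when a −log10 q of 5 or more was required, when each library gave the same number of top peaks, and when joining took a reciprocal overlap of 50%. As full medium had 0 peaks in the MHC, any region there listed in both CR1 and CR2 was bound to count as gained, so 3 of 3 restates that 0. The interval treats the 3 regions as independent, although 2 are neighbours, and the flank regions were not matched to them in strength. The share is therefore a description and no measure of an excess. No MHC region had a peak in all 4 libraries, and 0 were found in full medium alone, so no change in height between the media could be computed.

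Peak heights are given as the summit pileup, the number of sequenced tags stacked at the highest point, recovered as a whole number from each peak's deposited fold enrichment and −log10 p. The genome background, the pileup expected anywhere from the number of tags kept, was 1.30 tags in CR1, 1.08 in CR2, 1.11 in FM1 and 1.32 in FM2. Depth thus differed within the media as much as between them. The lowest pileup in any list was 6 tags in CR2 and 7 in CR1, FM1 and FM2, and the median pileup was 18 tags in CR1, 15 in CR2 and 16 in both FM1 and FM2.

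Region 1 was the strongest of the MHC. It ran from 32590427 to 32591040 on chromosome 6 (hg19), 614 bp, and was a single peak of 19 tags in CR1. In CR2 it was parted into a peak of 11 tags and one of 10 tags. The authors' fold enrichment was 8.70 in CR1 and 5.76 and 5.28 in CR2, and the −log10 q was 13.4, 5.76 and 4.80. Within their lists these peaks had rank percentiles of −log10 p of 74.4 in CR1 and of 45.2 and 35.8 in CR2, so the region was above the middle of one list and below that of the other.

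Region 2, from 32634156 to 32634623 (468 bp), lay 43115 bp further on and was the weakest. CR1 had 2 peaks there, of 12 and 10 tags, with a fold of 5.14 and 4.37. CR2 had 1 peak of 8 tags that touched both of them, with a fold of 4.30. The rank percentiles were 34.1 and 16.2 in CR1 and 12.8 in CR2, all in the lower part of their lists.

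Region 3, from 32635903 to 32636288 (386 bp), followed after 1279 bp. It was the region whose outline was most alike in both libraries, starting at the same base, with widths of 386 and 357 bp. Its pileup was 14 tags in CR1 and 10 in CR2, its fold 6.04 and 5.28 and its −log10 q 7.25 and 4.80. The rank percentiles in CR1 and CR2 were 50.2 and 35.8, near the middle and below it.

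**Figure D3:**
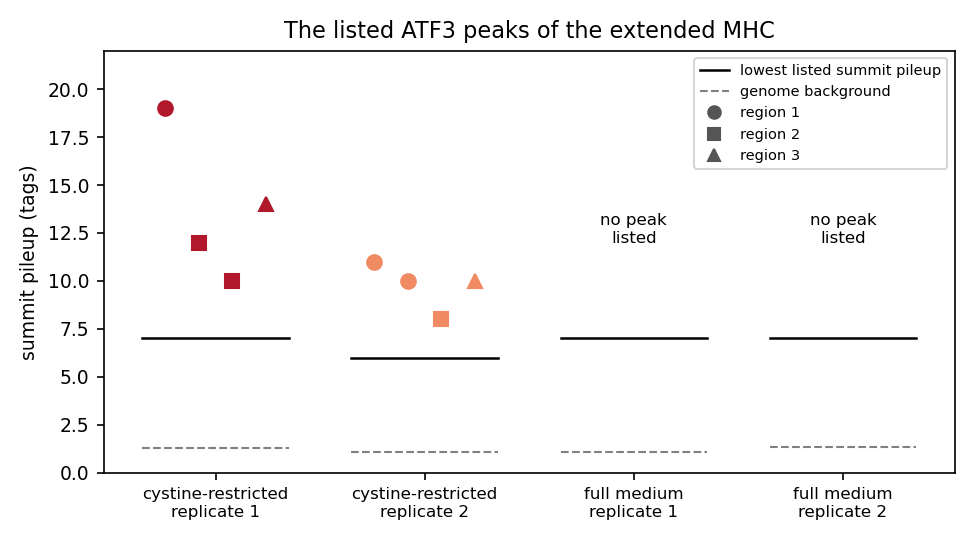
Summit pileup in tags (y axis) of each listed MHC peak in each library (x axis), with a symbol for each region, for CR1, CR2, FM1 and FM2 from left to right. Black lines mark the lowest pileup listed in that library and dashed lines its genome background. The cystine-restricted peaks stand between 8 and 19 tags, and no full-medium peak was listed.

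The local background at these peaks was low. At 4 of the 8 peaks it was no higher than the genome background, and at the others it was 1.10 to 1.53 tags. In the flanks 12.9% of 590 peaks were at the genome background, and on all 23 chromosomes 11.2% of 100024 were. The MHC peaks were also mostly in the lower part of their lists, and whether the low background goes with that was not tested.

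How far the missing full-medium peaks can be read depends on the height to be expected. The highest peak of region 1 in each library stood at 14.6 times the genome background in CR1 and 10.1 times in CR2. Had region 1 kept the lower of these in full medium, it would have stood at 11.2 tags in FM1 and 13.4 in FM2, and with the fall seen at regions common to all 4 libraries, whose full-medium heights were a median of 0.691 of those under restriction, at 7.76 and 9.25 tags. The same reckoning for region 3 gave 10.2 and 12.2 tags without that fall and 7.06 and 8.41 with it. For region 2 it gave 8.17 and 9.73 tags without the fall and 5.64 and 6.72 with it. The lowest pileup listed in full medium was 7 tags. Without the fall all 3 regions would have been above it in both libraries. With the fall put on the lower height, region 2 would have been under it in both, and regions 1 and 3 above it. The fall compares the mean log heights of CR1 and CR2 with those of FM1 and FM2. Put on the lower height alone, it gives heights on the low side. Where region 2 would stand from the mean of CR1 and CR2 was not computed. The fall comes only from regions listed in both full-medium libraries, so regions that fell out of those lists are not in it. The lowest listed pileup need not be the height required at these places, since the full-medium background there is not known. Whether the general difference in height between the media accounts for the absence of any of the 3 regions was not tested.

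Regions listed in both CR1 and CR2 were ranked by the lower of their 2 percentiles and parted into 10 strength classes. Region 2 fell in the lowest class, in which 64.2% of 2066 regions had no full-medium peak. Region 3 fell in the third class, where the share was 45.3% of 2064, and region 1 in the fourth, where it was 37.5% of 2063. All 3 shares were above the 27.6% of all 20633 such regions, but only that of region 2's class was a majority. The classes follow the weaker of the 2 restricted libraries. Whether strength accounts for the missing full-medium peaks was not tested.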

How the data were processed

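CUT&Tag libraries were aligned to hg19 and peaks called per library, with MACS2 2.2.7.1 and BWA 0.7.17 named for this, beside fastp 0.19.7 and bcl2fastq 2.17, per the submitters' processing notes. Options, and how reads that fit several places were treated, were not given in the sources used here. The deposited lists give each peak a fold enrichment (a ratio), a −log10 q with its −log10 p, and a score that equals 10 times the former. These are the authors' values, and every deposited −log10 q was at least 1.30.

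From these, the whole-number summit pileup and the background were solved for each peak, since MACS2 derives the fold from (pileup + 1)/(background + 1) and the p from a Poisson model. The solution matched the −log10 p within 0.1% for 100% of peaks, and a background within 0.002 tags of the list's lowest was counted as the genome background. The recovery and the merging were tested on simulated data. Peak numbers were compared with a two-sided exact permutation test. Python 3.11.15, numpy 2.4.6, scipy 1.17.1 and matplotlib 3.10.9 were used.

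The members, gene lists and class borders were chosen with earlier results of these data known. The naming rule took the strongest, gained and lost regions of each span, which here came to all 3 regions, and genes only with an hg19 annotation. The 3 promoters printed were chosen after their motif matches were seen. The planned fit of heights at regions common to all libraries had no MHC region to describe and was not run.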

Additional observations from a re-analysis of the deposited data

Results flagged for a closer look

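Peaks on the alternate haplotype contigs of chromosome 6 lie outside the comparisons of the MHC span on chromosome 6 itself. They numbered 2 in CR1 and 4 in CR2 (cystine restriction), above the 0 in FM1 and 1 in FM2 (full medium), from whole lists of 34140, 29903, 17697 and 19395 peaks. They merged into 6 regions, of which 1 was listed in CR1 and CR2 and absent from FM1 and FM2. On chromosomes 1 to 22 and X 12.7% of all merged regions had that pattern. The region with it lay on the ssto contig from 1150766 to 1151224 (459 bp), with a summit pileup of 16 and 17 tags and a fold of 7.40 and 8.64 in CR1 and CR2. The dbb contig had a peak of 15 tags in CR1 alone, and the qbl contig had peaks of 6, 7 and 9 tags in CR2 alone. The only full-medium peak, on the cox contig, had 7 tags. The local background at all 7 peaks was the genome background of their library. Which places on chromosome 6 these contig positions match was not analysed here.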

How the results depend on the processing

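The number of MHC peaks was higher under cystine restriction in every alternative run: the difference of 4 peaks fell to 2 when a −log10 q of 5 or more was required (3 and 1 against 0 and 0) and to 1.5 when each library gave its top 17447 peaks (2 and 1 against 0 and 0), and stayed at 4 without any 1 library. Gained regions numbered 3, and 1 under the stricter −log10 q, 1 with equal numbers of top peaks (region 1 in both cases) and 1 with a reciprocal overlap of 50% (region 3), where the peaks of regions 1 and 2 differ too much in width to be joined. With 1 library left out they numbered 3 to 4, since peaks bridged by the other library come apart. No region was lost in any of these alternatives, and none could be, since FM1 and FM2 had 0 peaks in the MHC. With the replicate block, same-numbered pairs each gave a difference of 4 peaks and 4 gained regions. The differences in these pairs and without any 1 library were fixed by the counts of 4 in CR1 and CR2 and 0 in FM1 and FM2. The correlation of the deviations of same-numbered libraries was 0.01 over 10331 common regions, and 2 numbers are too few to pair libraries. The MHC held 0.178% of the regions on chromosome 6 and 0.184% to 0.320% across the alternatives. Moving both class borders by 0.1 Mb either way left all 3 regions in class II. Peaks on haplotype contigs, an alternative added after the data were seen, numbered 3 of 7 under the stricter −log10 q, and 3 to 7 with 1 library left out, the lowest without cystine-restricted replicate 2. Centring and local background could not be applied, as no MHC region had peaks in all libraries. The depth limits what can be read from all 4 lists, whose lowest summit pileup was 7 tags in FM1, FM2 and CR1 and 6 in CR2.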
